A study of Arabidopsis thaliana with 18 samples.

Results

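The comparison described here is between 35S::HA::RAP2.12 rosettes and wild type rosettes of Arabidopsis thaliana (thale cress), both held at 1% oxygen. It was chosen by sample title: 3 HA-RAP2.12 hypoxia arrays were set against 3 wild type hypoxia arrays, 6 of the 18 arrays of the series. All plants were of the Columbia 0 ecotype, 5 weeks old, and total RNA came from whole rosettes, with 1 Affymetrix array per sample. HA-RAP2.12 plants carried RAP2.12 with an HA (haemagglutinin) epitope tag behind 35S, a viral promoter active in most plant tissues, and wild type plants carried no transgene. Both groups spent 1.5 h in the dark at 1% oxygen, starting 2 h into an 8 h day. The other 12 arrays were used as outside measures: HA-RAP2.12 and wild type kept for the same 1.5 h in the dark at 21% oxygen (called air here), and a 35S::amiRAP2.2-12 line, which expresses an artificial microRNA, under hypoxia and in air. Whether a replicate was a plant of its own or a pool is not given in the labels, nor whether a line came from a single transformant, and the p-values therefore cover the spread between these samples only.

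RAP2.12 is a transcription factor of group VII of the ethylene response factors, the main activators of low-oxygen genes in plants. In air its N-terminal cysteine is oxidised and the protein is degraded, and when oxygen falls it accumulates in the nucleus and turns on genes of fermentation and of survival without oxygen. The N-terminus of the fusion protein is occupied by a tag. Low oxygen and darkness together also change genes of growth, carbon use, heat shock proteins and defence in leaves. The question of the comparison is what constitutive HA-RAP2.12 adds or removes when wild type plants are themselves responding to low oxygen.

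The unit throughout is the deposited GCRMA value on the log2 scale, where a difference of 1 is 2-fold, and each gene is represented by 1 probe set whose level is not compared with that of another. Among 10988 probe sets whose mean exceeded log2 6, pairs of HA-RAP2.12 hypoxia arrays correlated at 0.9816 to 0.9939 and pairs of wild type hypoxia arrays at 0.9913 to 0.9954. Pairs that crossed the groups correlated at 0.9689 to 0.9749, so every array resembled its own group more. HA-RAP2.12 replicate 1 stood slightly apart from the other HA-RAP2.12 arrays, at 0.9816 and 0.9865. No probe set was named for RAP2.12 or RAP2.2, and their levels were not analysed here.

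Of 22746 probe sets, 1063 (4.67%) passed an adjusted p of 0.05 in the limma fit, 476 higher (2.09%) and 587 lower (2.58%) in HA-RAP2.12 than in wild type under hypoxia. The rises were larger. Their median size was 0.84, with 200 of at least 1 (0.879% of all probe sets) and 50 of at least 2, whereas the falls had a median size of 0.60, with 104 of at least 1 (0.457%) and 18 of at least 2, so that 304 (1.34%) differed by at least 1 in either direction. The arrays of the groups did not overlap for all 476 rises and for 586 of the 587 falls, and did not overlap for 23.4% of all probe sets tested. The share past the threshold grew with the level, at 1.02% of probe sets with a mean under log2 4 and 10.5% of those above 12. The count was 411 without HA-RAP2.12 hypoxia replicate 3, 669 without replicate 2, 658, 540 and 509 without wild type hypoxia replicates 1, 2 and 3, and 1657 without amiRAP2.2-12 hypoxia replicate 2, an array that enters only the estimate of the spread.

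The 3 largest rises among named genes were in a peroxidase, a receptor kinase and a wall enzyme gene. AT5G39580, a class III peroxidase, was at 6.86, 7.11 and 6.91 in the HA-RAP2.12 arrays and at 2.85, 2.89 and 2.83 in the wild type arrays. The groups were far apart and tight, with a difference of 4.10 (SE 0.66, adjusted p = 0.00539). B120, a lectin-type receptor kinase, was at 8.16, 8.03 and 8.16 in HA-RAP2.12 and at 5.28, 4.88 and 4.60 in wild type, a difference of 3.20 (SE 0.54, adjusted p = 0.00655). XTH18, an enzyme that cuts and rejoins xyloglucan in the wall, was at 6.61, 6.30 and 6.91 in HA-RAP2.12 and at 3.42, 2.83 and 4.11 in wild type. It rose by 3.15 (SE 0.59, adjusted p = 0.0103), and just missed the threshold without HA-RAP2.12 hypoxia replicate 3 (adjusted p = 0.0509).

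**Figure D1:**
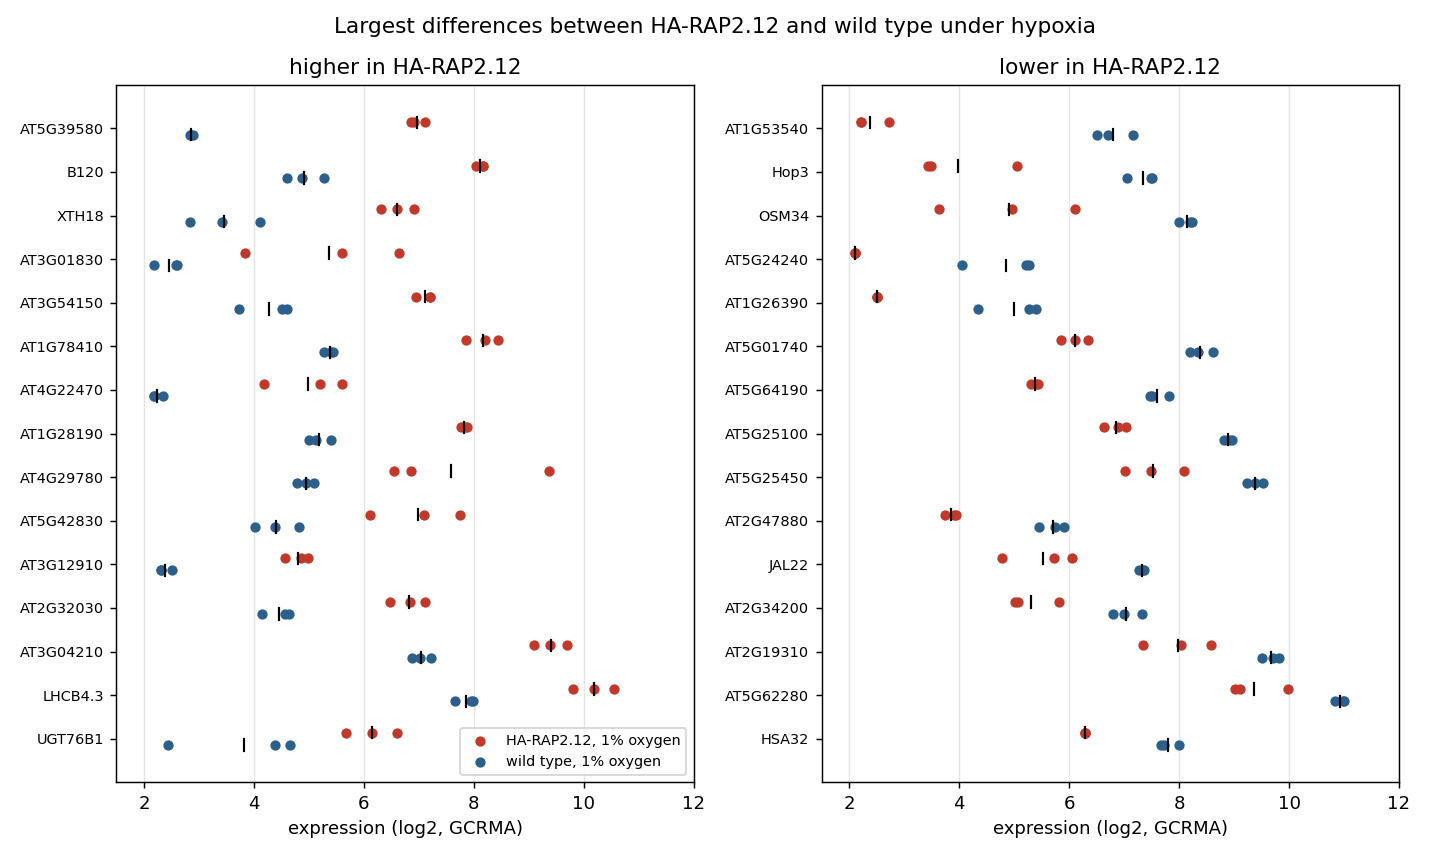
Levels of the 15 largest rises (left) and the 15 largest falls (right) among named genes, on the log2 scale, with 1 point per array, HA-RAP2.12 above wild type in each row and a tick at each mean of 3 arrays. No row overlaps between the groups, and AT4G29780, AT3G01830 and OSM34 show the widest spread among the HA-RAP2.12 arrays.

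The other genes among the 15 largest rises encode regulators, enzymes and an immune receptor-type protein. AT1G78410, a protein with a VQ motif (a family that binds WRKY transcription factors), was at 8.20, 7.85 and 8.44 in HA-RAP2.12 and at 5.28, 5.45 and 5.41 in wild type, and rose by 2.79 (SE 0.40). AT3G12910, a NAC domain transcription factor, was at 4.99, 4.56 and 4.86 in HA-RAP2.12 and at 2.30, 2.52 and 2.30 in wild type, and rose by 2.43 (SE 0.25, adjusted p = 4.47e-04) over a wild type level near the lowest values of the array. The calmodulin-like gene AT3G01830 (2.90), the methyltransferase family gene AT3G54150 (2.84), the lipid transfer protein-like gene AT4G22470 (2.76), AT1G28190 (2.65) and the acyltransferase family gene AT5G42830 (2.58) also rose. The wild type means of AT4G22470 (2.23) and AT3G01830 (2.46) were near the lowest values of the array, and the size of their differences depends on how the background was removed. AT3G04210, which encodes a TIR-NBS protein of the immune receptor type, rose by 2.35 (SE 0.32), and UGT76B1, a glucosyltransferase of isoleucic acid and salicylic acid, by 2.31 (SE 0.49). In AT3G01830 (6.64, 3.84 and 5.61 in HA-RAP2.12) and AT4G29780 (9.37, 6.55 and 6.86 in HA-RAP2.12, against 4.95, 4.79 and 5.10 in wild type) the HA-RAP2.12 arrays were spread over more than 2 units. Both lost the call without any single wild type hypoxia array or without HA-RAP2.12 hypoxia replicate 1 or 3, with adjusted p up to 0.108 and 0.103. The call of UGT76B1 was lost without HA-RAP2.12 hypoxia replicate 1 or 3, and that of the acetyltransferase family gene AT2G32030 (2.36) without HA-RAP2.12 hypoxia replicate 3 or wild type hypoxia replicate 3, with adjusted p up to 0.0729 and 0.0655.

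Rises between 1 and 2.3 were found in some ubiquitin ligase and kinase genes. Of 13 PUB and ATL ubiquitin ligase genes matched by symbol, 2 rose and none fell, against 2.09% and 2.58% of all probe sets, with a list median of 0.18 against 0 over all probe sets. Ligase genes named only by locus are not on this list, among them the RING-type gene AT1G20823, which rose by 1.27. PUB24, known for restraining immune responses set off by microbial patterns, was at 8.40, 7.72 and 8.17 in HA-RAP2.12 and at 6.28, 5.99 and 6.15 in wild type (1.95, SE 0.34, adjusted p = 0.00723). Its close relative PUB23 rose by 1.71 (SE 0.45, adjusted p = 0.0496), a call lost without 14 of the 18 arrays in turn (adjusted p up to 0.176). The receptor kinase gene AT1G74360 rose by 2.15 (SE 0.37), the protein kinase gene AT1G11050 by 1.71 (SE 0.25), and the secreted receptor-like protein gene AT5G48540 by 1.73 (SE 0.24), with HA-RAP2.12 arrays at 10.03, 10.12 and 10.08 and wild type arrays at 8.27, 8.50 and 8.26. Of 7 calcium sensor and kinase genes matched by symbol, CML42 alone passed, against 4.67% of all probe sets (1.61, SE 0.36). Its call was lost when any of the 6 arrays compared was left out (adjusted p up to 0.103). The calmodulin-like gene AT3G01830, described above, is named only by locus and is not on this list. BZIP60, a transcription factor of the unfolded protein response, was at 10.43, 10.41 and 10.45 in HA-RAP2.12 and at 9.56, 9.40 and 9.27 in wild type, and rose by 1.02 (SE 0.16, adjusted p = 0.00416). The folding genes CRT1b (0.08, SE 0.11) and PDIL5-1 (-0.12, SE 0.13) did not pass.

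Among named genes with a mean above log2 6, the smallest adjusted p of a rise belonged to LHCB4.3, an isoform of the minor antenna protein CP29 of photosystem II. It was at 10.56, 9.81 and 10.19 in HA-RAP2.12 and at 7.98, 7.95 and 7.66 in wild type, and rose by 2.33 (SE 0.20, adjusted p = 1.74e-04), a 5.01-fold difference. In whole rosettes, more cells of a type and more RNA per cell cannot be told apart. Its homologue LHCB4.2 was at 15.03, 14.91 and 14.91 in HA-RAP2.12 and at 15.10, 15.18 and 15.08 in wild type (-0.17, adjusted p = 0.0667). Of 10 nuclear photosynthesis genes 2 rose and none fell, against 2.09% and 2.58% of all probe sets. These were LHCB4.3 and the Calvin cycle enzyme gene SBPASE (0.34, SE 0.053), with a list median of -0.00149. Thioredoxin Y2 of the chloroplast (ty2, AT1G43560) was at 9.65, 9.87 and 9.75 in HA-RAP2.12 and at 8.98, 8.89 and 8.83 in wild type, and rose by 0.86 (SE 0.085, adjusted p = 4.47e-04). AT5G27760, annotated in Arabidopsis as a hypoxia-responsive family protein, was at 12.92, 13.06 and 12.86 in HA-RAP2.12 and at 11.75, 11.84 and 11.73 in wild type, and rose by 1.17 (SE 0.14). AT3G51660, a homologue of the animal cytokine MIF, was at 10.12, 9.79 and 9.86 in HA-RAP2.12 and at 7.62, 7.64 and 7.65 in wild type, and rose by 2.29 (SE 0.31). The metallothionein gene MT1C rose by 0.60 (SE 0.079).

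The 2 named genes that fell furthest are on the heat shock and chaperone list. AT1G53540, a small heat shock protein of class I, was at 2.72, 2.21 and 2.21 in HA-RAP2.12 and at 6.50, 6.71 and 7.16 in wild type, a difference of -4.42 (SE 0.72, adjusted p = 0.00542). Its level in HA-RAP2.12 under hypoxia was near the lowest values of the array, as were both genotypes in air (HA-RAP2.12 2.21, wild type 2.19), and differences against such levels depend on how the background was removed. Hop3, a co-chaperone that links HSP70 and HSP90, was at 5.04, 3.43 and 3.49 in HA-RAP2.12 and at 7.06, 7.49 and 7.51 in wild type (-3.37, SE 0.76, adjusted p = 0.0253). The HSP20-like gene AT2G19310 was at 8.57, 8.04 and 7.35 in HA-RAP2.12 and at 9.83, 9.71 and 9.51 in wild type (-1.69, SE 0.36). HSA32, a gene of long-term acquired thermotolerance, held the same value, 6.29, on all 3 HA-RAP2.12 arrays, against 8.01, 7.68 and 7.73 in wild type (-1.52, SE 0.30). Hop3 and AT2G19310 lost the call without any single wild type hypoxia array or without HA-RAP2.12 hypoxia replicate 2 or 3 (adjusted p up to 0.107 and 0.0881), and HSA32 without wild type hypoxia replicate 1 or HA-RAP2.12 hypoxia replicate 3 (up to 0.0582).

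The heat shock and chaperone list was written with 37 loci, and 12 genes of it had a named probe set. Of these 12, AT1G52560 and ATHSP22.0 were at the lowest values in both groups and have no direction. Of the other 10, 9 had a lower mean in HA-RAP2.12 and 2 passed, AT1G53540 and Hop3, against 2.58% of all probe sets past the threshold as lower. Their median difference was -1.49, against 0 over all probe sets. AT2G29500, another small heat shock protein, was at 6.48, 5.80 and 5.15 in HA-RAP2.12 and at 9.59, 9.81 and 9.46 in wild type, with no overlap, but its difference of -3.81 (SE 1.06) had an adjusted p of 0.0635. The amiRAP2.2-12 hypoxia arrays, which enter this SE, were spread widely for AT2G29500, at 8.89, 2.96 and 4.76. AT1G54050 (-1.96, SE 0.59), the peptidyl-prolyl isomerase gene AT5G48570 (-1.71, SE 0.47) and Fes1A, a factor that stabilises HSP70 (-1.27, SE 0.40), did not pass either. At an unadjusted limma p under 0.05 the count was 8 of the 12, against 3694 of the 22746 probe sets. AT3G09440, an HSP70 gene, was the only member with a higher mean in HA-RAP2.12, at 11.34, 10.88 and 10.61, against 10.53, 10.44 and 10.46 in wild type (0.47, adjusted p = 0.241).

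**Figure D2:**
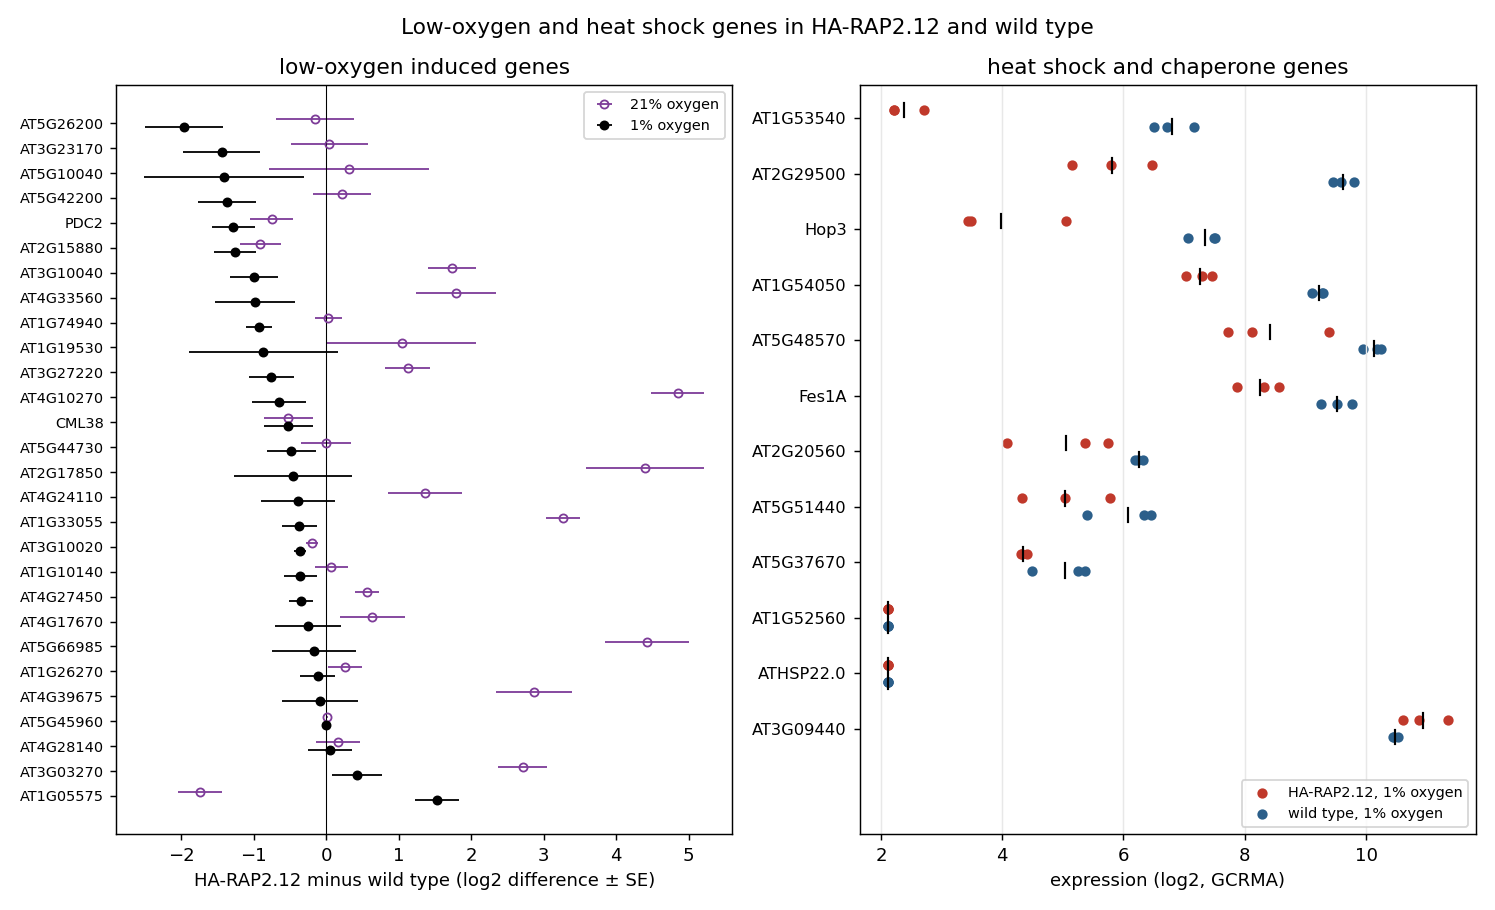
Left, HA-RAP2.12 minus wild type for 28 low-oxygen induced genes (log2 difference with SE of the fit), in air as open points and under hypoxia as filled points. Right, levels of 12 heat shock and chaperone genes under hypoxia on the log2 scale, 1 point per array with ticks at the means, HA-RAP2.12 above wild type in each row. Of the 10 genes above the lowest values, 9 have a lower HA-RAP2.12 mean, and AT1G52560 and ATHSP22.0 lie at the lowest value in both groups.

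The other large falls were in genes of different roles. OSM34, an osmotin of the pathogenesis-related thaumatin family, was at 3.64, 4.96 and 6.10 in HA-RAP2.12 and at 8.00, 8.21 and 8.23 in wild type (-3.25, SE 0.72, adjusted p = 0.0234), and its call was lost without any single wild type hypoxia array or HA-RAP2.12 hypoxia replicate 1 or 2 (adjusted p up to 0.079). AT5G24240, a phosphoinositide kinase family gene, was at 2.11 on every HA-RAP2.12 hypoxia array, against 5.21, 4.05 and 5.27 in wild type (-2.74, SE 0.23, adjusted p = 1.64e-04), a size set by the lowest value of the table, and its mean was 2.11 in HA-RAP2.12 and in wild type in air. AT1G26390, a berberine bridge-type oxidoreductase, was at 2.50, 2.50 and 2.50 in HA-RAP2.12 and at 5.26, 5.39 and 4.35 in wild type (-2.50, SE 0.30). Its relative AT1G26380 lay on the other side, at 8.78, 8.55 and 8.67 in HA-RAP2.12 and at 6.29, 6.34 and 6.46 in wild type, although its difference of 2.30 did not pass (adjusted p = 0.063). AT5G01740 (-2.29, SE 0.41), AT5G64190 (-2.21, SE 0.40), the glutaredoxin gene AT2G47880 (-1.85, SE 0.34) and AT2G34200, a zinc finger gene (-1.74, SE 0.24), fell with no overlap between the arrays. AT5G25450, a subunit of mitochondrial complex III, was at 8.09, 7.49 and 7.02 in HA-RAP2.12 and at 9.53, 9.24 and 9.38 in wild type (-1.85), and its adjusted p was 0.0544 without HA-RAP2.12 hypoxia replicate 3. AT5G62280 fell by 1.57 (SE 0.27).

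JAL22, a jacalin-type lectin, was at 4.77, 6.05 and 5.73 in HA-RAP2.12 and at 7.36, 7.26 and 7.35 in wild type (-1.81, SE 0.40, adjusted p = 0.0246). Its lowest array, HA-RAP2.12 replicate 1, was also the lowest for PYK10, a beta-glucosidase known from roots, which was at 5.10, 8.10 and 7.37 in HA-RAP2.12 and at 8.73, 8.68 and 8.55 in wild type (-1.80, adjusted p = 0.368). Of 6 root marker genes 4 were at the lowest values in both groups, none passed, and the mean level of the 6 ran from 3.52 to 4.22 in HA-RAP2.12 and from 4.33 to 4.40 in wild type. The part of these genes in the fall of JAL22, whose call was lost without any single wild type hypoxia array or HA-RAP2.12 hypoxia replicate 1 or 3 (adjusted p up to 0.0813), was not tested. The leaf marker RCA, Rubisco activase, was at 14.94, 14.94 and 14.97 in HA-RAP2.12 and at 14.89, 14.92 and 14.85 in wild type, a high level in both groups.

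Among brighter named genes the 6 falls with the smallest adjusted p were mostly smaller than 1. The exception was the first of them. AT5G25100, a nonaspanin-type endomembrane protein, was at 7.04, 6.89 and 6.64 in HA-RAP2.12 and at 8.82, 8.96 and 8.91 in wild type (-2.04, SE 0.14, adjusted p = 5.21e-05). AT1G21680 was at 13.34, 13.20 and 13.13 in HA-RAP2.12 and at 14.08, 14.01 and 13.99 in wild type (-0.81, SE 0.059). AT3G07350 and AT2G20670, which belong to the same plant family of unknown function (DUF506), fell by 0.48 (SE 0.052) and 0.42 (SE 0.049). AT1G26920 (-0.71, SE 0.078) and AT2G22660 (-0.60, SE 0.066) fell with similar precision.

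Most measured genes known to be induced by low oxygen had a somewhat lower mean in HA-RAP2.12 under hypoxia, and few passed the test. The list was written with 50 loci, and 28 genes of it had a named probe set. Of these 28 members 24 had a lower and 3 a higher mean, against 40.3% and 36% of all probe sets (the rest had a difference of 0). Of the 28 members 4 fell and 1 rose, against 2.58% and 2.09% of all probe sets, and the list median was -0.47 against 0. At an unadjusted limma p under 0.05 the count was 10, against 3694 of the 22746 probe sets. PDC2, a pyruvate decarboxylase of ethanol fermentation, was at 10.46, 10.86 and 10.69 in HA-RAP2.12 and at 11.98, 11.79 and 12.08 in wild type, a difference of -1.28 (SE 0.30, adjusted p = 0.0295). AT1G74940 was at 10.46, 10.47 and 10.45 in HA-RAP2.12 and at 11.38, 11.32 and 11.46 in wild type (-0.93, SE 0.18). AT2G15880, a leucine-rich repeat extensin-like gene (-1.26, SE 0.28), and AT3G10020 (-0.36, SE 0.087) fell as well. HRA1 (AT3G10040), a trihelix factor known to restrain RAP2.12, was at 10.62, 11.02 and 11.02 in HA-RAP2.12 and at 11.97, 12.04 and 11.64 in wild type, with no overlap, but its difference of -0.998 (SE 0.33) did not pass (adjusted p = 0.117). The SE of the fit draws on all 18 arrays. Under hypoxia the SD of HRA1 was 0.23 in HA-RAP2.12, 0.211 in wild type and 0.923 in amiRAP2.2-12. The widest member difference, in AT5G26200 (-1.96, SE 0.54), had an adjusted p of 0.0615. The member that rose, AT1G05575, was at 9.70, 9.46 and 9.85 in HA-RAP2.12 and at 8.02, 8.06 and 8.35 in wild type (1.53, SE 0.30). Its wild type mean was 8.142 under hypoxia and 9.405 in air, so its wild type level was not raised by hypoxia here. Without HA-RAP2.12 hypoxia replicate 3 all 5 calls were lost, without wild type hypoxia replicate 3 all but that of AT1G05575, and further single arrays ended some of them, with adjusted p up to 0.117 for AT2G15880, 0.141 for AT3G10020 and 0.1 for PDC2.

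Members of this list that stood far above wild type in air did not stand far above it under hypoxia, and some had a lower mean there. AT4G10270, of the wound-responsive family, was at 13.29, 13.40 and 13.36 in HA-RAP2.12 and at 13.95, 14.08 and 13.98 in wild type under hypoxia (-0.65, SE 0.37), whereas in air its difference was 4.85 (adjusted p = 6.99e-05). AT1G33055 differed by -0.37 under hypoxia and by 3.27 in air, with an interaction (the hypoxia difference minus the air difference) of -3.64 (adjusted p = 4.79e-04). The interaction of HRA1 was -2.73 (adjusted p = 0.0116) and that of AT5G66985 was -4.60 (adjusted p = 0.0159). In all, 6 of the 28 members had an interaction past the threshold, against 1.62% of all probe sets. In air 7 were higher and 1 was lower, against 0.171% and 0.365% of all probe sets. That last gene, AT1G05575, was the only member higher under hypoxia and lower in air, with an interaction of 3.27 (adjusted p = 0.00336). The list of fermentation, pyruvate and sucrose breakdown was written with 20 loci, and 5 genes of it had a named probe set. Among these 5 (4.67% of all probe sets passed), PDC2 fell. ACS, which makes acetyl-CoA from acetate, rose by 0.32 (SE 0.082, adjusted p = 0.0486), a call lost without 14 of the 18 arrays in turn (adjusted p up to 0.165).

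Of 48 measured glucosyltransferase genes of the UGT family, 4 fell and 1 rose, against 2.58% and 2.09% of all probe sets, with a median of -0.000887. IAGLU, an indole-3-acetate glucosyltransferase, was at 10.71, 10.38 and 10.55 in HA-RAP2.12 and at 11.40, 11.74 and 11.78 in wild type (-1.10, SE 0.25, adjusted p = 0.0257), a call lost without wild type hypoxia replicate 2 or 3 or HA-RAP2.12 hypoxia replicate 2 or 3 (adjusted p up to 0.0932). UGT74D1, which glucosylates auxins, was at 8.07, 7.60 and 7.81 in HA-RAP2.12 and at 8.75, 8.94 and 8.99 in wild type (-1.07, SE 0.14, adjusted p = 0.00209). UGT72B3 (-0.97, SE 0.092) and UGT73B1 (-0.92, SE 0.17) fell, and UGT76B1, described above, rose. UGT73B1 had an adjusted p of 0.0503 without HA-RAP2.12 hypoxia replicate 3. Of 16 auxin metabolism and response genes, IAGLU alone passed, against 4.67% of all probe sets. Outside the list, the homeodomain-leucine zipper gene HAT2, which auxin induces, fell by 0.69 (SE 0.12).

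In the ethylene list, 2 of 3 genes fell, against 2.58% of all probe sets. AT1G12010, annotated as an ACC oxidase, the last step of ethylene synthesis, was at 5.71, 5.92 and 5.57 in HA-RAP2.12 and at 6.80, 7.13 and 6.81 in wild type (-1.18, SE 0.24), with an adjusted p of up to 0.0753 without wild type hypoxia replicate 2 or HA-RAP2.12 hypoxia replicate 3. RTE1, a regulator of the receptor ETR1, fell by 0.35 (SE 0.075), a call lost without any single wild type hypoxia array or HA-RAP2.12 hypoxia replicate 1 or 3 (up to 0.0949), and EIN3, the central transcription factor, did not pass (-0.10, SE 0.13). Of 59 cell wall and expansion genes 2 rose and 1 fell, near the 2.09% and 2.58% of all probe sets. The rises were those of XTH18 and EXLA1 (1.12, adjusted p = 0.0493, lost without 14 of the 18 arrays in turn and up to 0.18). TBL25, of the family of wall acetyltransferases, fell by 0.86 (SE 0.15). EXO, a gene linked to cell expansion, was at 8.52, 7.59 and 7.47 in HA-RAP2.12 and at 6.54, 6.68 and 6.11 in wild type (1.42, adjusted p = 0.0506). The sucrose transporter gene SWEET11 was at 9.69, 9.82 and 9.64 in HA-RAP2.12 and at 10.37, 10.48 and 10.38 in wild type and fell by 0.70 (SE 0.09), the only one of 14 sugar and amino acid transporter genes past the threshold, against 4.67% of all probe sets. HIS1-3, a linker histone gene known to respond to drought, was at 5.28, 5.21 and 5.07 in HA-RAP2.12 and at 6.83, 6.89 and 6.04 in wild type (-1.40, SE 0.26), and its adjusted p was 0.0522 without HA-RAP2.12 hypoxia replicate 3.

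Among 9 mitochondrial dysfunction genes, against 4.67% of all probe sets, AT2G41730 alone passed, at 6.63, 8.17 and 8.22 in HA-RAP2.12 and at 5.75, 5.84 and 5.96 in wild type (1.83, SE 0.34), and it lost the call without HA-RAP2.12 hypoxia replicate 3 (adjusted p up to 0.0533). The glutaredoxin gene ROXY2 (-0.92, SE 0.13) passed among 19 glutathione S-transferase and glutaredoxin genes matched by symbol, against the same 4.67%. The glutaredoxin gene AT2G47880, among the largest falls above (-1.85), is named only by locus and is not on that list. MCCB, a subunit of the leucine-degrading methylcrotonyl-CoA carboxylase (-0.51, lost without 11 of the 18 arrays in turn, up to 0.147), and NAC014 (-0.40, likewise lost without 11, up to 0.157) also fell. None of 6 WRKY, 7 jasmonate, 8 abscisic acid and cold, 26 cytochrome P450, 5 MYB and bHLH or 4 gibberellin, cytokinin and brassinosteroid genes passed the limma threshold, and at an unadjusted p under 0.05 the counts were 0, 1, 2, 6, 1 and 1 in that order of lists. WRKY53 (0.61, SE 0.31), COR15B (0.93, SE 0.29) and STZ, a zinc finger repressor (1.27, SE 0.40, adjusted p = 0.0953) had higher means in HA-RAP2.12. Of 47 chloroplast-encoded genes, a list added after values had been seen, none passed the limma threshold (10 had an unadjusted p under 0.05). A higher mean was found for 42 and a lower one for 5, with a median difference of 0.47. Over all probe sets the shares were 36% and 40.3%, and the rest had a difference of 0. The mean level of the 47 ran from 10.08 to 10.19 in HA-RAP2.12 and from 9.28 to 9.73 in wild type. Whether these genes moved together was not tested. The RNA polymerase gene rpoB was at 5.62, 5.97 and 5.81 in HA-RAP2.12 and at 4.00, 4.00 and 4.00 in wild type (1.80, SE 0.62, adjusted p = 0.14), and petN at 9.41, 9.92 and 10.02 in HA-RAP2.12 and at 7.11, 7.73 and 8.45 in wild type (2.02, SE 0.75).

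Setting the genotype difference in air beside that under hypoxia, whose group means rest on other arrays, showed genes that changed sides. In air 122 probe sets (0.536%) passed, 39 higher (0.171%) and 83 lower (0.365%) in HA-RAP2.12. The excess of lower probe sets in air was not seen without HA-RAP2.12 air replicate 2 (22 higher, 20 lower) or without HA-RAP2.12 air replicate 3 (44 higher, 40 lower). Of the 83 lower in air, 18 (21.7%) were higher under hypoxia and 18 (21.7%) were lower under hypoxia, against 2.09% and 2.58% of all probe sets. Both comparisons use the same spread per probe set, estimated from the 18 arrays, so a small spread favours a call in both. These shares are therefore a description and no test. With only the arrays compared, 26 changed sides and 3 were lower in both. Of the 39 higher in air, 2 (5.13%) were higher under hypoxia and none lower. Of all 476 rises under hypoxia, 308 had a negative difference in air and 164 a positive one, and of the 587 falls 416 had a negative and 160 a positive one. The interaction passed in 369 probe sets (1.62%), 266 positive (1.17%) and 103 negative (0.453%). Among fits that each lacked 1 array, the lowest air count was 35 (wild type air replicate 3 left out) and the lowest interaction count 201 (wild type air replicate 1 left out), and the highest were 343 and 778 (both with amiRAP2.2-12 hypoxia replicate 2 left out). The count of 18 that changed sides depended on the arrays used, with 4 to 9 when any wild type or HA-RAP2.12 array was left out, 86, 46 and 9 without amiRAP2.2-12 hypoxia replicate 2, 1 or 3, 8 without amiRAP2.2-12 air replicate 2, and 122 without all amiRAP2.2-12 arrays.

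**Figure D3:**
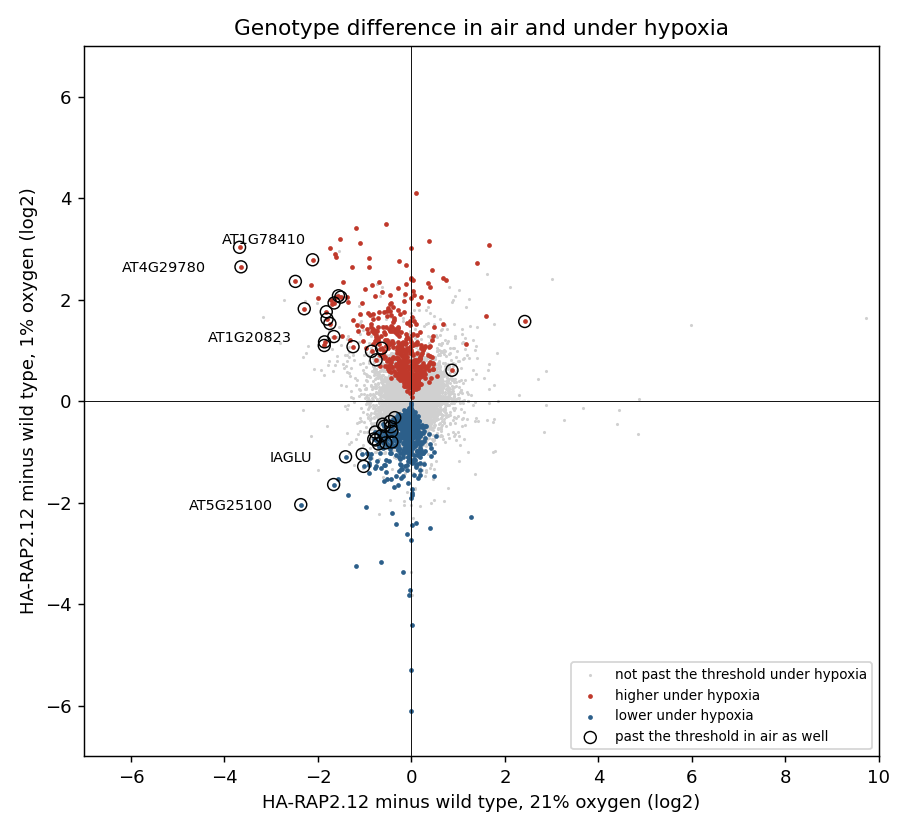
HA-RAP2.12 minus wild type at 21% oxygen (horizontal) and at 1% oxygen (vertical), log2, for 22746 probe sets. Red and blue points mark the 476 higher and 587 lower under hypoxia, grey points the rest, and circles those past the threshold in air as well, of which 18 lie at upper left and 18 at lower left.

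Of the 18 that were lower in air and higher under hypoxia, 10 were named. AT1G20823, a RING-type ubiquitin ligase gene, had the smallest interaction p of these: under hypoxia it was at 6.27, 6.44 and 6.57 in HA-RAP2.12 and at 5.15, 5.09 and 5.23 in wild type (1.27, adjusted p = 7.63e-04), and in air at 3.67, 3.67 and 4.10 in HA-RAP2.12 and at 5.68, 5.45 and 5.28 in wild type (-1.66, adjusted p = 1.53e-04). The interaction was 2.93 (adjusted p = 3.94e-05). AT4G29780, a nuclease-like gene, was at 5.47, 5.26 and 5.87 in HA-RAP2.12 and at 9.31, 9.12 and 9.12 in wild type in air, and its interaction of 6.29 was the widest among the named genes (adjusted p = 0.00502). AT1G78410 had an interaction of 4.90, AT2G32030 of 4.84, AT5G35735 of 3.64 and SUFE2, an activator of chloroplast cysteine desulfurase, of 2.32. The hypoxia call of SUFE2 was lost when any of the 6 arrays compared was left out (adjusted p up to 0.0837). AT3G16530, a legume-type lectin gene, was at 12.52, 12.76 and 12.60 in HA-RAP2.12 and at 11.69, 11.61 and 11.64 in wild type under hypoxia, and at 10.45, 10.49 and 10.64 in HA-RAP2.12 and at 11.49, 11.33 and 11.33 in wild type in air (interaction 1.84).

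**Figure D4:**
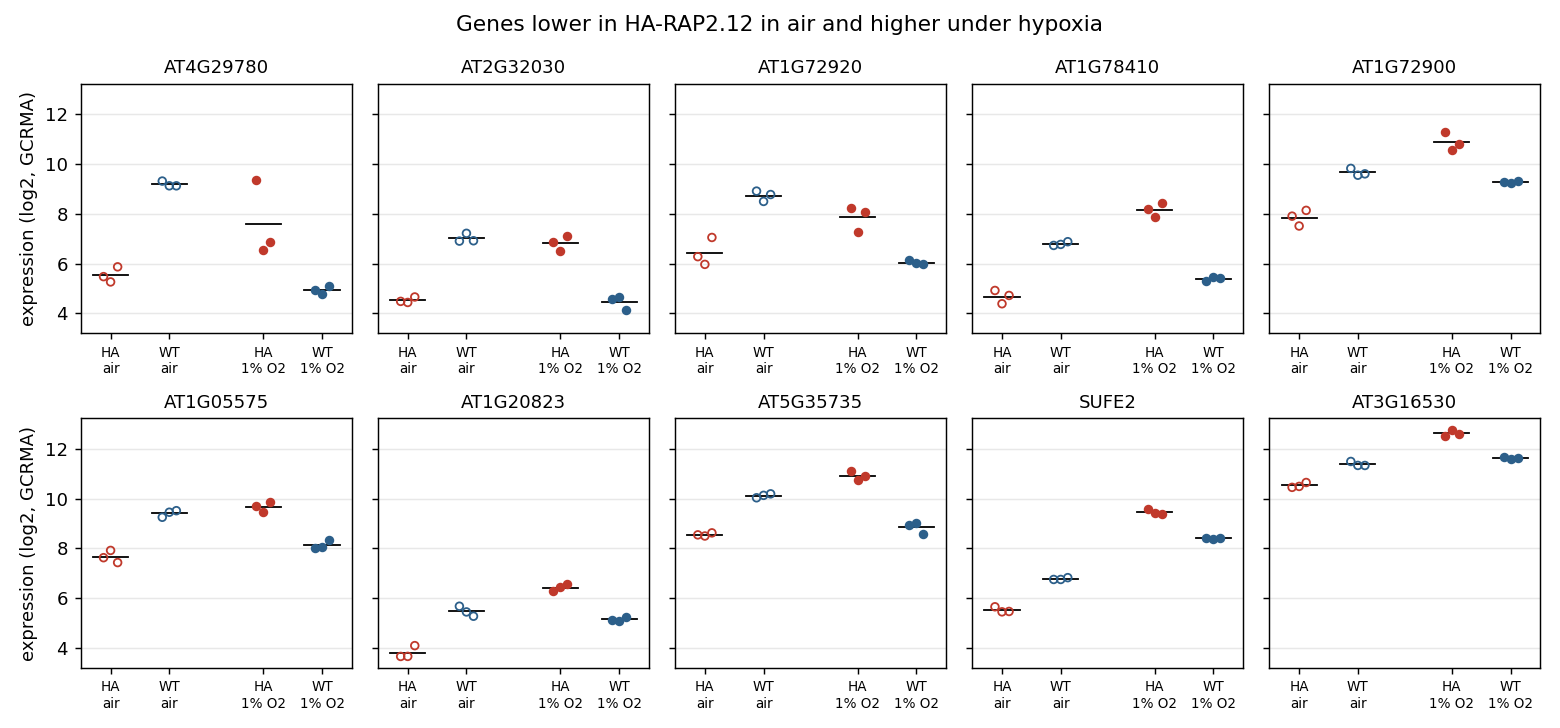
Levels (log2) of the 10 named genes lower in HA-RAP2.12 in air and higher under hypoxia, with 3 arrays per group and a bar at the mean; HA, HA-RAP2.12, red; WT, wild type, blue; open points air, filled points 1% oxygen. In every panel HA-RAP2.12 lies below wild type in air and above it under hypoxia.

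AT1G72900 and AT1G72920 of this group belong to a run of TIR domain genes at AT1G72840 to AT1G72950 on chromosome 1, a set picked after these values were seen. AT1G72900 was at 11.28, 10.57 and 10.81 in HA-RAP2.12 and at 9.26, 9.23 and 9.32 in wild type (1.62, SE 0.29), and AT1G72920 at 8.24, 7.26 and 8.08 in HA-RAP2.12 and at 6.12, 6.00 and 5.99 in wild type (1.82, SE 0.42). AT1G72940 had the same pair of directions, 0.59 under hypoxia (adjusted p = 0.0782) and -0.85 in air, with an interaction of 1.44 (adjusted p = 0.0116). AT1G72840 fell by 1.17 (SE 0.20), AT1G72890 (-0.16) and AT1G72950 (0.24) did not pass, and the other 3 of the 9 measured were at the lowest value. Probe sets of such related genes may share signal, which was not tested. AT1G66090, a TIR-NBS gene elsewhere on the chromosome, was at 9.46, 8.95 and 9.51 in HA-RAP2.12 and at 7.06, 7.29 and 7.47 in wild type, with an interaction of 4.03 (adjusted p = 0.00515). The call of AT1G72920 was lost without any single wild type hypoxia array or HA-RAP2.12 hypoxia replicate 1 or 3, and that of AT1G66090 without wild type hypoxia replicate 1 or HA-RAP2.12 hypoxia replicate 3 (adjusted p up to 0.115 and 0.0652).

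Genes lower in HA-RAP2.12 at both oxygen levels included AT5G25100, whose difference was -2.04 under hypoxia and -2.37 in air (adjusted p = 4.42e-06), with an interaction of 0.33 (SE 0.19). IAGLU differed by -1.10 under hypoxia and by -1.41 in air, while its level under hypoxia was far above that in air in each genotype, with means of 10.54 against 4.02 in HA-RAP2.12 and 11.64 against 5.43 in wild type. AT5G57760, HAT2, the B-box zinc finger gene AT2G47890, AT1G28070, AT3G48970, AT3G57800, AT2G22660, AT1G21680 and AT5G65760 made up the rest of the 11 named genes. Their hypoxia calls were lost without wild type hypoxia replicate 3 in AT2G47890, AT5G65760 and AT1G28070, without HA-RAP2.12 hypoxia replicate 3 in AT3G57800, AT5G65760 and AT1G28070, and in AT1G28070 also without wild type hypoxia replicate 1 or HA-RAP2.12 hypoxia replicate 1 or 2 (adjusted p up to 0.106). The only named gene higher in both was AT3G15140, at 3.20, 3.23 and 3.21 in HA-RAP2.12 and at 2.81, 2.82 and 2.19 in wild type under hypoxia, a call lost without any single HA-RAP2.12 hypoxia array (adjusted p up to 0.092). The count of 18 lower in both was 68 without the amiRAP2.2-12 arrays, 39 without amiRAP2.2-12 hypoxia replicate 2, and 4 to 11 without any of 10 arrays in turn (all of wild type, and replicates 2 and 3 of HA-RAP2.12 in air and under hypoxia).

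The hypoxia response of the amiRAP2.2-12 line, whose group means rest on 6 arrays outside the comparison, sorted the probe sets by their behaviour under low oxygen. That response passed in 3711 probe sets (16.3%), and 547 rose and 709 fell at least 2-fold. Of the 547 raised there, 80 (14.6%) were lower and 34 (6.22%) higher in HA-RAP2.12 than in wild type under hypoxia, and the median difference was -0.18. Of the 709 lowered there, 53 (7.48%) were higher and 7 (0.987%) lower, and the median difference was 0.20. Among the remaining 21490 the shares were 1.81% higher and 2.33% lower, with a median of 0. The medians had the same signs in air, at -0.24 for the raised and 0.22 for the lowered probe sets. The grouping and the hypoxia calls use the same spread per probe set, so a small spread favours a call in both. The remaining probe sets also hold many with a mean under log2 4, a band in which 1.02% passed. The shares called are therefore a description and no test.

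Within the 15 largest rises, 13 had a lower wild type mean under hypoxia than in air, and all 15 had a higher HA-RAP2.12 mean under hypoxia than in air. For B120 the HA-RAP2.12 mean was 8.12 under hypoxia and 4.27 in air, and the wild type mean 4.92 under hypoxia and 5.80 in air. LHCB4.3 moved differently, with HA-RAP2.12 means of 10.19 under hypoxia and 9.99 in air and wild type means of 7.86 under hypoxia and 9.64 in air. Within the 15 largest falls, 14 had a higher wild type mean under hypoxia than in air, and 8 a higher HA-RAP2.12 mean. These genes were chosen by their hypoxia levels, so the counts describe them and carry no test.

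The amiRAP2.2-12 line under hypoxia gave a second yardstick. HA-RAP2.12 differed from it in 230 probe sets (1.01%), 106 higher (0.466%) and 124 lower (0.545%), and with each array centred on the common median in 317, of which 32.8% in place of 46.1% were higher. When only the 6 arrays of these groups were fitted, limma called 0, with 1525 at an unadjusted p under 0.05, and in fits that each lacked 1 array the count was lowest with HA-RAP2.12 hypoxia replicate 3 left out (94) and highest with amiRAP2.2-12 hypoxia replicate 2 left out (569). These calls rest on the spread shared with the other groups. AT5G25100 was lower in HA-RAP2.12 than in amiRAP2.2-12 (-2.22, SE 0.14, adjusted p = 1.93e-05), as was AT5G57760 (-1.62, adjusted p = 0.00159). AT3G12910 (2.19, adjusted p = 0.00203), AT5G14700 of the cinnamoyl-CoA reductase-like family (2.22, adjusted p = 0.00197) and AT1G74360 (1.99, adjusted p = 0.0236) were higher in HA-RAP2.12. BZIP61, a leucine zipper factor, was lower in HA-RAP2.12 than in amiRAP2.2-12 (-1.76, adjusted p = 0.00278) and than in wild type (-1.14, adjusted p = 0.0121).

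The amiRAP2.2-12 line was also set against wild type under hypoxia, in a comparison that shares the wild type arrays. It passed in the same direction for 2 of the 15 largest rises and 6 of the 15 largest falls of HA-RAP2.12, among them AT5G24240 and AT1G26390, which were near the lowest values in both lines. LHCB4.3, OSM34 and 3 other genes, chosen after their values were seen, are given side by side. LHCB4.3 differed from wild type by 2.33 in HA-RAP2.12 and by 1.88 in amiRAP2.2-12 (adjusted p = 9.04e-04). ty2 differed by 0.86 in HA-RAP2.12 and by 0.75 in amiRAP2.2-12 (adjusted p = 0.00145). AT3G51660 differed by 2.29 in HA-RAP2.12 and by 1.58 in amiRAP2.2-12 (adjusted p = 0.0281). OSM34 differed by -3.25 in HA-RAP2.12 and by -5.29 in amiRAP2.2-12 (adjusted p = 0.00481), and PDC2 by -1.28 in HA-RAP2.12 and by -1.49 in amiRAP2.2-12 (adjusted p = 0.0318). HA-RAP2.12 minus amiRAP2.2-12 was 0.45 (SE 0.20, adjusted p = 0.44) for LHCB4.3, 2.04 (SE 0.72, adjusted p = 0.272) for OSM34 and 0.21 (SE 0.30, adjusted p = 1) for PDC2, which does not show that the lines act alike. In all, 323 probe sets (1.42%) passed between amiRAP2.2-12 and wild type under hypoxia, 138 higher (0.607%) and 185 lower (0.813%) in amiRAP2.2-12. The higher share of these calls was 42.7%, and 53.2% when arrays were centred on the common median, and 10 passed with only those 6 arrays fitted.

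In a fit of only the 6 arrays compared, 902 probe sets passed, 470 higher and 432 lower. Of these, 522 were among the 1063, and the rest passed only in the smaller fit. Several genes named above missed the threshold in the smaller fit. Among the rises these were AT3G01830, AT4G29780, AT5G42830, UGT76B1, AT1G72920, AT5G14700, AT2G41730, PUB23, MT1C, ACS, EXLA1 and AT3G15140. Among the falls they were Hop3, OSM34, AT2G19310, AT2G34200, AT5G25450, AT5G62280, JAL22, HIS1-3, AT1G72840, AT2G15880, HAT2, BZIP61, AT1G28070, MCCB and NAC014. With the replicate block PDC2, PUB23, MCCB, AT3G01830 and AT4G29780 lost the call. Quantile normalization ended the calls of AT3G10020 and PUB23, and the trend and robust options of eBayes those of ACS, EXLA1 and PUB23.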

How the data were processed

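The authors deposited log2 values, 1 for each probe set on each array, which come from GCRMA per the submitters' processing notes (version and genome build not given in the sources used here). GCRMA removes background, equalises arrays and summarises probes, which leaves many dim probe sets at a shared lowest value of 2.11; 35.4% of values lay under log2 2.5. After removal of 64 controls, 22746 of 22810 probe sets were tested. The platform annotation named 1 gene for 13513, several for 503 and none for 8730, and a table of the assembly TAIR10.1 gave current symbols for 13436. With limma 3.58.1 (R 4.3.3; lmFit and default eBayes), the 6 group means were estimated from the 18 arrays together. Contrasts had two-sided p-values, adjusted by Benjamini-Hochberg across the 22746 probe sets at a threshold of 0.05, without filter or replicate block. Genes in the text are the 15 largest rises and falls among named genes past the threshold, without overlap between arrays and with a group mean above log2 4, the 6 rises and 6 falls of smallest adjusted p with a mean above log2 6, and list members (up to 4 past the threshold and 2 others). A gene with several probe sets is represented by the brightest. Lists were matched by locus or by gene symbol, and hold only genes with a named probe set. Some members had means under log2 2.5 in both hypoxia groups, where little difference can be seen. They were 11 of 26 cytochrome P450, 8 of 16 auxin, 8 of 14 transporter and 7 of 19 glutathione S-transferase and glutaredoxin genes. Genes outside this rule were chosen after their values were seen: those past the threshold both in air and under hypoxia, further members of the low-oxygen, heat shock and TIR lists, and others among the 40 largest rises or falls. The comparison and all lists were chosen with earlier results of these data known. Arrays carry no depth, and their number limits the precision. The fit was tested on simulated data. Figures used Python 3.11.15 and matplotlib 3.10.9. A promoter motif search was not run.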

Additional observations from a re-analysis of the deposited data

Results flagged for a closer look

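The genotype difference depended on oxygen for 22 of the 39 genes picked by size or by adjusted p, by the interaction test of the limma fit (the HA-RAP2.12 minus wild type difference under hypoxia minus that in air). The widest positive interactions were those of AT4G29780 (6.29), AT1G78410 (4.90), AT2G32030 (4.84), B120 (4.73), AT3G01830 (4.53) and AT3G54150 (4.44). In all of these 6 genes the mean of HA-RAP2.12 was above wild type under hypoxia and below it in air. AT1G28190 (3.56), AT3G51660 (3.13), AT3G04210 (3.05), AT4G22470 (3.03) and AT3G12910 (2.44) followed, the last with an air difference of -0.01. LHCB4.3 (1.98), AT5G27760 (1.45) and ty2 (0.67) had interactions of smaller size on bright probe sets.

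Negative interactions were found for AT5G01740 (-3.57), AT1G26390 (-2.89), AT5G24240 (-2.74), AT2G34200 (-1.76), AT1G26920 (-0.75), AT3G07350 (-0.63), AT2G20670 (-0.41) and AT1G21680 (-0.39). AT5G01740 was lower in HA-RAP2.12 under hypoxia (-2.29) and had a higher mean in air (1.28). AT1G21680 was lower at both oxygen levels, by more under hypoxia (-0.81) than in air (-0.42). AT5G24240 was at the lowest value of the table in HA-RAP2.12 at both oxygen levels and in wild type in air. These genes were chosen by their hypoxia difference, which enters the interaction, so the share of 22 in 39 is a description and no test of the set.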

How the results depend on the processing

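The labels do not say whether same-numbered replicates share a batch. Same-numbered HA-RAP2.12 and wild type hypoxia arrays deviated together with correlations of 0.035, 0.018 and 0.084, which cannot settle whether the samples were paired. With the replicate block the hypoxia count was 885, the air count 75, and the count of probe sets lower in air and higher under hypoxia 8. The hypoxia count of 1063 was 3926 with array weights, 1949 without the amiRAP2.2-12 arrays (added after seeing the data, as were all alternatives for the air and hypoxia overlaps) and 304 with a difference of at least 1, and ran from 411 to 1657 with single arrays left out. With the dim filter, array weights, a difference of at least 1, no amiRAP2.2-12 arrays and single arrays left out, the air count was 199, 700, 62, 463 and 35 to 343. The interaction count was 559 with the dim filter, 1393 with array weights (61.7% positive, in place of 72.1%), 997 with only the arrays compared, the same 12 arrays that remain without amiRAP2.2-12 (997), and 201 to 778. The amiRAP2.2-12 hypoxia response was 642 with only its arrays, 1256 at 2-fold and 2843 to 3648, and 63.2% of its calls were higher after median centring, against 49.3%. amiRAP2.2-12 against wild type gave 516, 2400, 10 and 106 with the dim filter, array weights, only the arrays compared and 2-fold, and 105 to 1021. HA-RAP2.12 against amiRAP2.2-12 gave 1825, 0 and 89 with array weights, only the arrays compared (1525 at an unadjusted p under 0.05) and 2-fold, and 94 to 569. The 18 probe sets that changed sides were 41 with the dim filter, 158 with array weights, 122 without amiRAP2.2-12 and 4 to 86. The 18 lower at both oxygen levels were 29, 141, 68 and 4 to 39, with 3 for only the arrays compared and 5 at 2-fold. The cause of these shifts was not tested, beyond the fewer samples and fewer probe sets that the fits without arrays and with the filter hold by construction. Of 115 named genes past the threshold, 54 kept the call in every alternative other than the 2-fold limit, 49 lost it without at least 1 array, and none reversed. Quantile normalization, median centring, removal of 1061 probe sets ending in _s_at or _x_at and eBayes with trend and robust options kept the hypoxia count within 1.5 times. With the mean of all probe sets of a gene, 1 cytochrome P450 gene fell where none had, and the other list counts stayed within 1.5 times. The promoter motif search was not run.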
